A study of Mus musculus with 8 samples.

Results

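The genes described here are the Notch receptors Notch1, Notch2 and Notch3, the ligands Dll1, Dll3 and Jag1, and the transcriptional repressors Hes1, Hes5, Hey1 and Hey2. They were taken by symbol from the deposited gene table. All 10 were present, of 16096 genes in all, and all 10 passed the filter on low counts. RNA was sequenced from peripheral retina of mouse embryos on a C57BL/6 background at embryonic day 16.5. One group of 4 libraries is labelled Pax6alpha-Cre:Ezh2fl/null, with 1 floxed and 1 null Ezh2 allele. The other group of 4 is labelled Pax6alpha-Cre:Ezh2fl/+, with 1 floxed and 1 wild-type allele. Ezh2 is the enzyme of Polycomb repressive complex 2, which methylates lysine 27 of histone H3 at silenced genes, and the comparison asks which transcripts differ when it is removed. Both groups carry the Pax6alpha-Cre driver, which acts in the peripheral retina. Cells that the driver does not reach therefore keep a working allele in both groups, at a lower dose in the Ezh2fl/null group. The labels do not say whether each library is 1 embryo or a pool, so p-values measure only the spread between these libraries.

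Notch receptors are cut when a Delta or Jagged ligand on a neighbouring cell binds them. The freed intracellular domain joins the DNA-binding protein Rbpj and switches on target genes, among them those of the Hes and Hey repressors. In the developing retina this signalling holds cells as progenitors, Hes1 and Hes5 restrain neuronal differentiation, and Hes and Hey genes are also linked to the late-forming Müller glia.

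The promoter windows of Hes5 and Hey2 are shown because these genes moved in opposite directions (below) and both windows hold the core sequence that Rbpj recognises. RefSeq windows, from 250 bases before to 50 bases after the annotated start on GRCm38.p6, matched 8 of the 10 genes. Hes1 and Hey1 were not among them. TGGGAA or its reverse complement TTCCCA was found in the windows of Hes5 and Hey2, at 2 places each, and in none of the other 6 genes' windows. Among all 32851 windows, 25.6% held at least 1 such match and 3.79% held 2 or more. The 250 bases upstream of each start are given 5′ to 3′ on the gene's strand with the matches in capitals, followed by 30 bases that span the Hey2 start.
Hes5 upstream, chr4:154960673-154960922, plus strand: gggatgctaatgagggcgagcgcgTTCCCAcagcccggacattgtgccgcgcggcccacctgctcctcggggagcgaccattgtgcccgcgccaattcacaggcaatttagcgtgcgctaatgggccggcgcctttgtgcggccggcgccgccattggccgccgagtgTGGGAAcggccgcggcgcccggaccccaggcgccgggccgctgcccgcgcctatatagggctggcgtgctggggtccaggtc
Hey2 upstream, chr10:30842784-30843033, minus strand: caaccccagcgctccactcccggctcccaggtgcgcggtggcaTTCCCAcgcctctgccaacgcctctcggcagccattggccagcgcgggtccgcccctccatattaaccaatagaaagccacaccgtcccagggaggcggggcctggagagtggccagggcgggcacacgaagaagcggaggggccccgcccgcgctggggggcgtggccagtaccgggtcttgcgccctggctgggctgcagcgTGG
Hey2 start, with the match that begins 3 bases before it: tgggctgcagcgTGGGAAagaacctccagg
The Hes5 matches begin 226 and 82 bases before the start and the Hey2 matches 207 and 3 bases before it. The sequences that Hes and Hey proteins bind were searched the same way on both strands. CACGTG was in none of these 8 genes' windows, against 7.15% of all windows, and CACGCG was in those of Notch2, Dll1 and Jag1, against 9.27%. CACNAG was in those of Notch1, Notch2, Notch3 and Dll1, against 42.5%. A match is a run of letters and was not tested as a binding site.

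Across all genes, 8.35% of the 15014 tested were called higher in the Ezh2fl/null libraries and 3.46% lower (adjusted p under 0.05 by Benjamini-Hochberg, from edgeR's quasi-likelihood test). Higher calls made up 70.7% of all calls, and 82.5% with counts scaled by library size alone. Libraries held 13994825 to 18391647 counts. The count of Ezh2 over the whole gene was not lower in the group meant to lack it, at 276, 251, 255 and 220 CPM (counts scaled to normalized library size) in Ezh2fl/null replicates 1 to 4 against 197 to 234.7 CPM in the Ezh2fl/+ libraries. Its log2 fold change of 0.21 was not called (edgeR adjusted p = 0.0701), and 3 of 20 alternatives called it higher. That count does not check the loss of single exons, so directions are given as those of the libraries labelled Ezh2fl/null. Xist was counted in 2 Ezh2fl/null libraries, replicates 2 and 3, at 1874 and 1714 counts, and at no more than 4 counts in the other 6 libraries. Mitochondrial rRNA took 13.7% and 13.5% of the counts in Ezh2fl/+ replicates 1 and 3 and 8.72% and 8.19% in replicates 2 and 4. The lens gene Cryaa had 53 counts in Ezh2fl/+ replicate 1 and 30 in Ezh2fl/null replicate 2, and at most 2 elsewhere. All 10 markers of retinal progenitors were counted in each library. Their summed level was 5681 to 6832 CPM in the Ezh2fl/null and 6995 to 8059 CPM in the Ezh2fl/+ libraries. Sums over marker lists, here and below, were scaled by library size alone. Of the 10, 3 were called lower, Fgf15 and Ccnd1 among them, 0 higher and 7 were not called. The median log2 fold change of the 10 was -0.13. Ccnd1 (mean 3217 against 4102 CPM) and Fgf15 (mean 1078 against 1337 CPM) were the largest parts of the sum. In whole tissue, fewer cells of a type and less RNA per cell cannot be told apart.

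Of the 10 genes, 2 were called higher (Hey1 and Hey2), 1 was called lower (Hes5) and 7 were not called. The median log2 fold change was -0.03 over the 10 genes and -0.01 over all genes tested. The values of the groups did not overlap for 4 of the 10 genes, Hes1 being the one of these that was not called. Of all genes tested, 16.3% had groups that did not overlap.

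**Figure D1:**
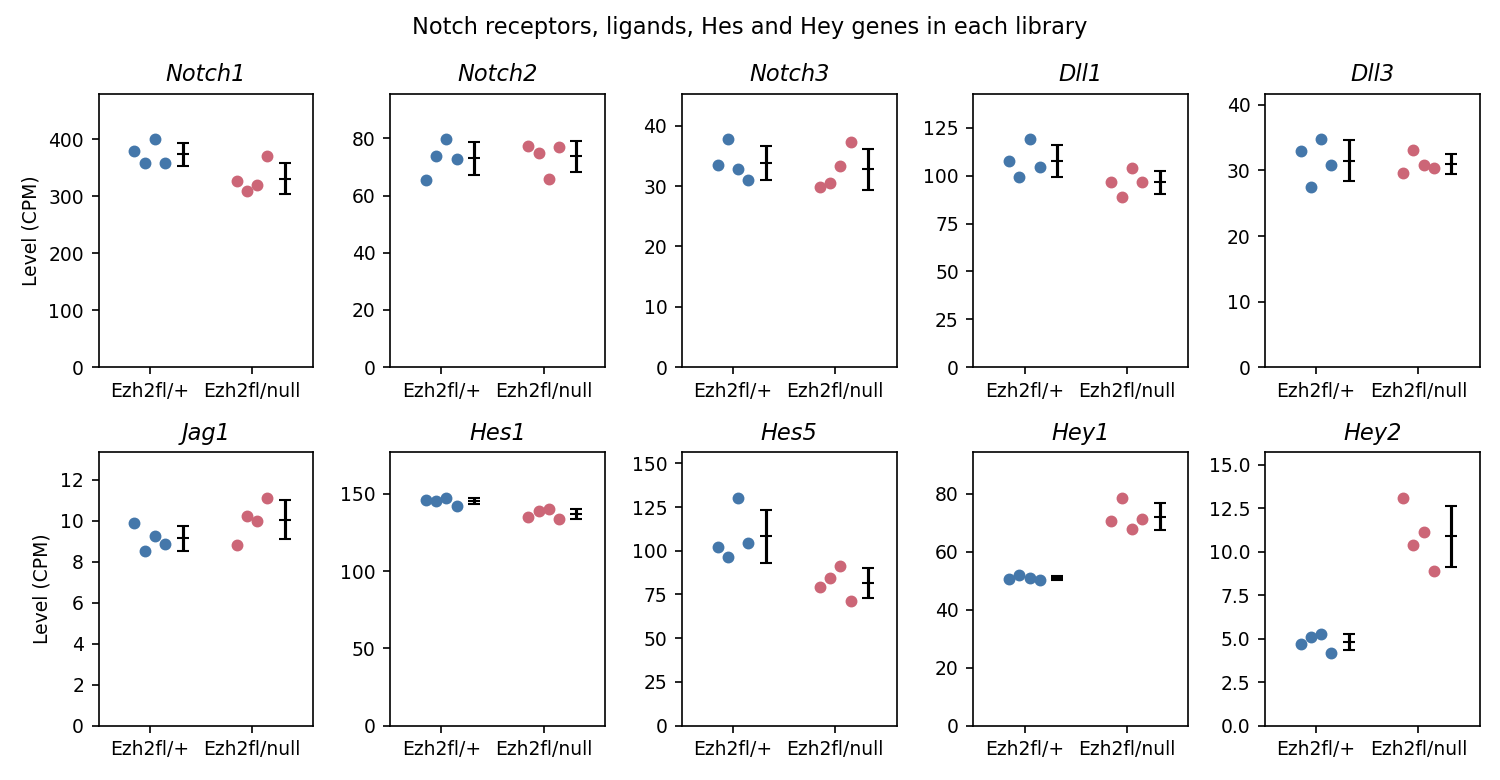
Level of each gene in each library, in CPM from 0 (vertical axis), for the 4 Ezh2fl/+ libraries (blue) and the 4 Ezh2fl/null libraries (red), with replicates 1 to 4 from left to right and the mean with its SD in black. Hey1 and Hey2 sit higher in every Ezh2fl/null library, Hes5 and Hes1 sit lower, and the other 6 genes overlap.

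None of the 3 receptors was called (edgeR). Notch1, the most abundant of them and the main receptor of retinal progenitors, stood at 326, 308, 320 and 370 CPM in Ezh2fl/null replicates 1 to 4 and at 379, 358, 400 and 358 CPM in Ezh2fl/+ replicates 1 to 4. Replicates 1 to 3 of the Ezh2fl/null group lay below every Ezh2fl/+ library, and replicate 4 lay within their range. The groups differed by log2 -0.18 (SE 0.06, 95% limits -0.30 to -0.05), with an edgeR Benjamini-Hochberg adjusted p of 0.0808. Notch2 ranged from 65.7 to 77.2 CPM in the Ezh2fl/null and from 65.6 to 79.8 CPM in the Ezh2fl/+ libraries, a log2 fold change of 0.01 with limits of -0.13 to 0.16. Notch3, a receptor known from vascular mural cells and also made by neural progenitors, ranged from 29.9 to 37.4 and from 31.1 to 37.8 CPM, a log2 fold change of -0.04 with limits of -0.21 to 0.13. At an unadjusted p under 0.05 1 receptor, Notch1, was lower and 0 were higher. The share of all genes at that threshold is not given, here or below. DESeq2 called Notch1 lower (adjusted p = 0.0318), and so did edgeR without Ezh2fl/null replicate 4, at log2 -0.23 (adjusted p = 0.00985; 20 alternatives spanned 0.00985 to 0.519).

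None of the 3 ligands was called either (edgeR). Dll1, the Delta ligand that newborn neurons present to their neighbours, stood at 96.7, 89.0, 104 and 96.8 CPM in Ezh2fl/null replicates 1 to 4. It stood at 108, 99.5, 119 and 105 CPM in Ezh2fl/+ replicates 1 to 4. Only Ezh2fl/null replicate 3 reached into the Ezh2fl/+ range. Its log2 difference of -0.16 (SE 0.06, limits -0.29 to -0.03) had an edgeR adjusted p of 0.118. Dll3, a divergent Delta protein that does not activate Notch on neighbouring cells, ranged from 29.7 to 33.1 and from 27.4 to 34.8 CPM, a log2 fold change of -0.02 with limits of -0.18 to 0.13. Jag1, the Jagged ligand associated with the ciliary margin and lens, was the lowest of the 10 per length. It ranged from 8.81 to 11.1 CPM in the Ezh2fl/null and from 8.51 to 9.88 CPM in the Ezh2fl/+ libraries, a log2 fold change of 0.14 with limits of -0.07 to 0.34. At an unadjusted p under 0.05 1 ligand, Dll1, was lower and 0 were higher, and DESeq2 called 0. With replicate numbers as a block Dll1 was called, at log2 -0.16 (edgeR adjusted p = 0.0491; 20 alternatives spanned 0.0491 to 0.581).

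Of the 2 Hes genes, Hes5 fell and Hes1 was not called. Hes5 (ENSMUSG00000048001, mm10 chromosome 4, 154960923 to 154962371, plus strand), a Notch target of progenitors, stood at 79.0, 84.2, 91.5 and 71.4 CPM in Ezh2fl/null replicates 1 to 4. In Ezh2fl/+ replicates 1 to 4 it stood at 102, 96.4, 130 and 104 CPM. Every Ezh2fl/null library was below every Ezh2fl/+ library, and Ezh2fl/+ replicate 3 was the highest of the 8. Means of 81.5 ± 8.47 and 108 ± 15.1 CPM (SD, n = 4 each) gave a log2 fold change of -0.41 (SE 0.09, 95% limits -0.60 to -0.22, edgeR adjusted p = 0.00654). Hes1 (ENSMUSG00000022528, chromosome 16, 30064384 to 30067796, plus strand), the other main Notch effector in the retina, stood at 135, 139, 140 and 134 CPM in Ezh2fl/null replicates 1 to 4. In Ezh2fl/+ replicates 1 to 4 it stood at 146, 146, 148 and 142 CPM. The groups lay next to each other without overlap, and the means of 137 ± 3.16 and 145 ± 2.16 CPM (SD, n = 4 each) differed by log2 -0.09 (SE 0.04, limits -0.17 to -0.0046, edgeR adjusted p = 0.182). The 95% limits of Hes1 did not overlap those of Hes5, but the lower limit of Hes1 (-0.17) lay close to the upper limit of Hes5 (-0.22). The difference in change between the 2 genes was not tested.

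The call of Hes5 ended with Ezh2fl/+ replicates 2 and 4 alone as controls, at log2 -0.30 (edgeR adjusted p = 0.0523; 20 alternatives spanned 8.27e-05 to 0.0523). Its exons also overlap those of Gm20421, a transcript annotated on the opposite strand, over 433 of 1363 bases, or 31.8%. The sources used here do not state strandedness, and reads from the shared bases may stand under both names. Gm20421 had between 44.6% and 51.6% of the Hes5 count in every library and was itself called lower, at log2 -0.41 (SE 0.10, edgeR adjusted p = 0.0157). Hes1, Hey1 and Hey2 overlap no other annotated gene. Notch1, Notch3 and Dll1 overlap exons of counted transcripts on the opposite strand, and these 4 transcripts had log2 fold changes of -0.19 to -0.12 with edgeR adjusted p-values of 0.234 to 0.746.

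Both Hey genes rose. Hey1 (ENSMUSG00000040289, chromosome 3, 8663359 to 8667256, minus strand), a repressor related to the Hes proteins, stood at 70.5, 78.7, 67.9 and 71.2 CPM in Ezh2fl/null replicates 1 to 4. In Ezh2fl/+ replicates 1 to 4 it stood at 50.5, 52.1, 51.1 and 50.2 CPM. The lowest Ezh2fl/null library lay well above the highest Ezh2fl/+ library, and the Ezh2fl/+ libraries were very close to one another. The means were 72.1 ± 4.63 and 51.0 ± 0.800 CPM (SD, n = 4 each), 1.41-fold apart, a log2 fold change of 0.50 (SE 0.06, limits 0.38 to 0.62, edgeR adjusted p = 2.87e-05). Hey2 (ENSMUSG00000019789, chromosome 10, 30832359 to 30842801, minus strand), a close relative, was much scarcer. It stood at 13.1, 10.4, 11.2 and 8.90 CPM in Ezh2fl/null replicates 1 to 4, from 244, 149, 170 and 144 counts. In Ezh2fl/+ replicates 1 to 4 it stood at 4.72, 5.11, 5.26 and 4.18 CPM, from 63, 78, 75 and 75 counts. The groups were far apart, with the widest relative spread of the 10 genes among the Ezh2fl/null libraries (a coefficient of variation of 16.1%). The means were 10.9 ± 1.76 and 4.82 ± 0.483 CPM (SD, n = 4 each), 2.27-fold apart, a log2 fold change of 1.19 (SE 0.13, limits 0.91 to 1.46, edgeR adjusted p = 2.08e-05). Both calls were kept in all 20 alternatives, at log2 0.45 to 0.53 for Hey1 and 1.08 to 1.27 for Hey2. With the male libraries alone, the Ezh2fl/null group is reduced to replicates 1 and 4.

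Relative to either Hes gene, both Hey genes were higher in the Ezh2fl/null libraries. A ratio of 2 genes' counts within a library needs no scaling between libraries, so it sets Hey against Hes directly. Hey1 counts were 52.4%, 56.6%, 48.4% and 53.2% of the Hes1 counts in Ezh2fl/null replicates 1 to 4, and 34.6%, 35.8%, 34.6% and 35.3% in Ezh2fl/+ replicates 1 to 4. The mean log2 ratio was -0.93 ± 0.09 against -1.51 ± 0.02 (SD, n = 4 each), a difference of 0.58, or 1.499-fold. Hey1 counts were 89.3%, 93.4%, 74.2% and 99.7% of the Hes5 counts in the Ezh2fl/null and 49.4%, 54.0%, 39.2% and 48.2% in the Ezh2fl/+ libraries, a log2 difference of 0.90, or 1.87-fold. In Ezh2fl/null replicate 4 the 2 genes were thus counted almost equally.

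For the scarcer Hey2 the shift was wider. Its counts were 9.74%, 7.47%, 7.96% and 6.65% of the Hes1 counts in Ezh2fl/null replicates 1 to 4 and 3.23%, 3.51%, 3.57% and 2.93% in Ezh2fl/+ replicates 1 to 4, a log2 difference of 1.25, or 2.39-fold. Against Hes5 they were 16.6%, 12.3%, 12.2% and 12.5% in the Ezh2fl/null and 4.61%, 5.30%, 4.03% and 4.01% in the Ezh2fl/+ libraries, a log2 difference of 1.57, or 2.98-fold. The standard errors of the 4 differences ran from 0.05 to 0.14 log2. For each of the 4 pairs the groups did not overlap, and an exact permutation test, two-sided and over 70 assignments, gave p = 0.0286, the smallest it can give, and 0.0286 adjusted over the 4 pairs (Benjamini-Hochberg). The 4 tests share genes and libraries, so they are not independent. Their outcome also follows from the values above. In every Ezh2fl/null library both Hey genes lay above, and both Hes genes below, all Ezh2fl/+ libraries. Each ratio therefore had to separate the groups, and the p-values add no evidence to the levels of the single genes.

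**Figure D2:**
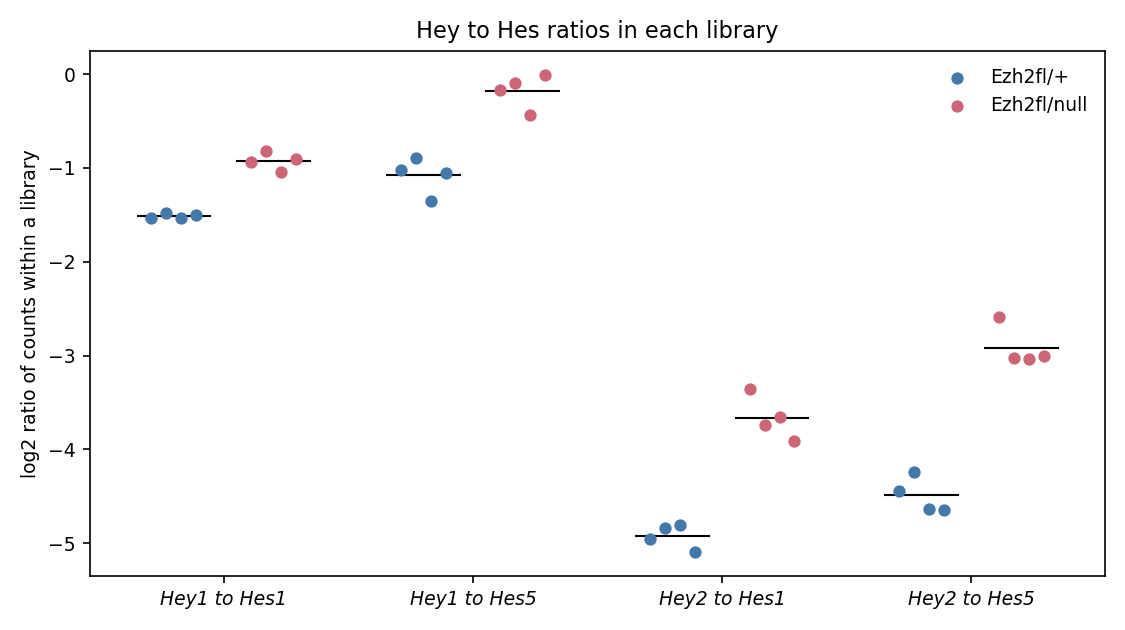
Log2 ratio of Hey to Hes counts within each library (vertical axis) for the 4 pairs of genes, with Ezh2fl/+ in blue, Ezh2fl/null in red, replicates 1 to 4 from left to right and group means as black lines. The 2 groups are separate for each pair, from a mean difference of 0.58 for Hey1 to Hes1 up to 1.57 for Hey2 to Hes5.

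Within each family the genes also differed in size of change. The log2 ratio of Hey2 to Hey1 was -3.00 to -2.43 in the Ezh2fl/null and -3.59 to -3.28 in the Ezh2fl/+ libraries, a mean difference of 0.67. That of Hes5 to Hes1 was -0.90 to -0.62 and -0.59 to -0.18, a mean difference of -0.32 with a gap of 0.02 between the groups. These 2 comparisons were added after the values were seen and carry no test. Summed, Hes1 and Hes5 gave 205 to 232 CPM in the Ezh2fl/null and 242 to 278 CPM in the Ezh2fl/+ libraries, and Hey1 and Hey2 gave 79.0 to 89.0 and 54.4 to 57.2 CPM.

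The remaining member of the Hey family, Heyl, changed in the other direction from Hey1 and Hey2. It stood at 36.6, 29.8, 36.6 and 39.8 CPM in Ezh2fl/null replicates 1 to 4 and at 44.3, 42.2, 48.0 and 50.9 CPM in Ezh2fl/+ replicates 1 to 4, and it fell by 0.38 on the log2 scale (SE 0.08, edgeR adjusted p = 0.00765). Every Ezh2fl/null library was below every Ezh2fl/+ library, the order seen for Hes5. The call of Heyl ended with the male libraries alone (log2 -0.28, edgeR adjusted p = 0.0617), with sex as a covariate (log2 -0.28, 0.0999) and with Ezh2fl/+ replicates 2 and 4 alone as controls (log2 -0.38, 0.0571), while 20 alternatives spanned 0.000399 to 0.0999. Of the other Hes genes counted, Hes6, an antagonist of Hes1, was at log2 0.08 (limits -0.02 to 0.18) and Hes2 at 0.13 (limits -0.06 to 0.33), neither of them called.

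Levels between genes were compared per length, in the authors' FPKM (fragments scaled to gene length and library size). In the Ezh2fl/+ libraries Hes5 led with 78.6 ± 9.08 FPKM, followed by Hes1 with 70.7 ± 2.38, Notch1 with 26.0 ± 0.606, Dll1 with 25.3 ± 1.29 and Hey1 with 22.9 ± 1.13 (SD, n = 4). Hes5 and Hes1 overlapped in range, as did Notch1 with Dll1 and Dll1 with Hey1. The lower 5 were Dll3 with 10.9 ± 0.760 FPKM, Notch2 with 6.89 ± 0.627, Notch3 with 4.17 ± 0.429, Hey2 with 1.87 ± 0.167 and Jag1 with 1.55 ± 0.0555, without overlap between neighbours.

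In the Ezh2fl/null libraries the order changed at 3 places. Hes1 led with 67.7 ± 1.59 FPKM over Hes5 with 60.2 ± 5.92, with overlapping ranges. Hey1, with 32.9 ± 1.45, stood above Notch1 with 23.5 ± 2.40 and Dll1 with 23.1 ± 1.89, and its range of 31.3 to 34.7 FPKM lay clear of theirs. Hey2, with 4.30 ± 0.695, came level with Notch3 at 4.11 ± 0.506, and their ranges overlapped.

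**Figure D3:**
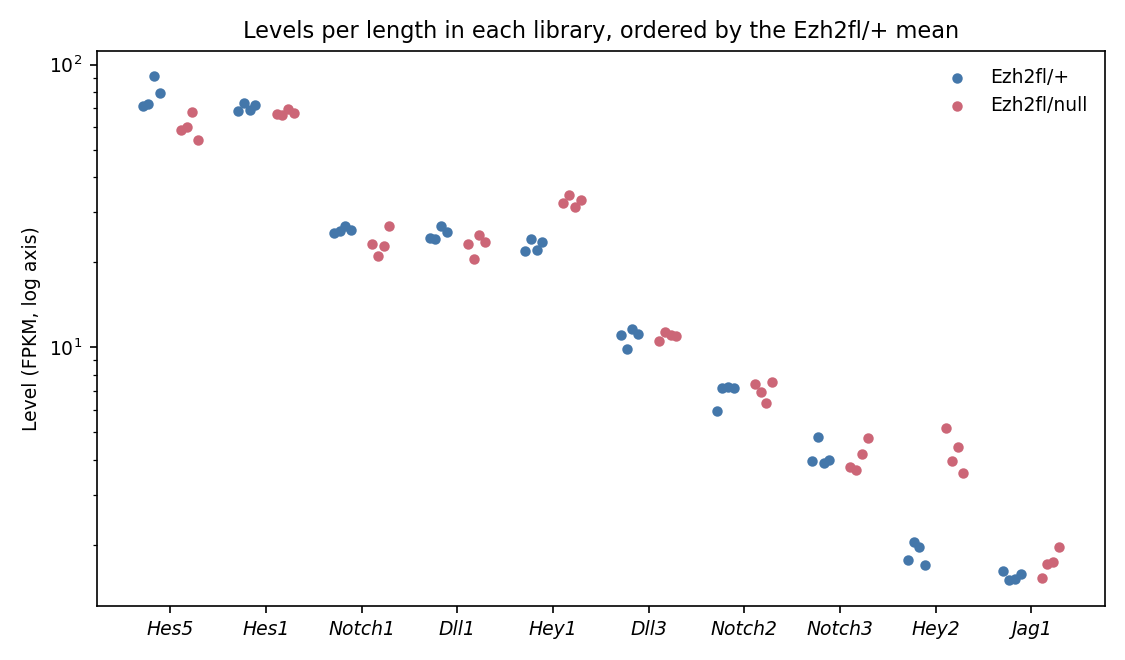
Level of each gene per length, in FPKM on a log axis (vertical), in each Ezh2fl/+ (blue) and Ezh2fl/null (red) library, with genes ordered by their Ezh2fl/+ mean. Hey1 lies below Notch1 and at the lower edge of Dll1 in the Ezh2fl/+ libraries, at 21.9 to 24.2 FPKM, and above both at 31.3 to 34.7 FPKM in the Ezh2fl/null libraries, while Hey2 moves from near Jag1 to near Notch3.

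For the called genes, the closest profiles over the 8 libraries were sought among genes averaging 10 CPM or more. Likeness was the root mean square difference of log2 levels, each centred on its own mean. For Hes5 the closest was its antisense partner Gm20421 (0.06), followed by the histone gene Hist1h2bb (0.08). For Hey1 they were Gsto1, a glutathione transferase gene, and Slc1a2, a glutamate transporter gene (0.04 and 0.05). For Hey2 they were the homeobox gene Meis2 (0.13), at 181 ± 24.9 against 81.5 ± 4.28 CPM, and the zinc finger gene Zfp503 (0.13), at 19.7 ± 1.37 against 9.60 ± 0.388 CPM (SD, n = 4). These are descriptions of 8 libraries that fall into 2 groups, so any gene with a like fold change can come close.

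The rest of the pathway was read from a list of 66 other Notch pathway genes, of which 62 were tested and 4 were not analysed here. Of the 62, 6 were called higher, 4 lower and 52 were not called, with a median log2 fold change of -0.03. Across all genes 8.35% were called higher and 3.46% lower. Among receptors and ligands 2 of 6 were higher and 1 lower. Notch4, a receptor best known from endothelium, fell from 8.54 ± 0.321 to 5.70 ± 0.268 CPM (SD, n = 4; log2 -0.59, SE 0.09, edgeR adjusted p = 0.000645), with 82 to 99 counts in the Ezh2fl/null and 114 to 161 in the Ezh2fl/+ libraries. The noncanonical ligand-like genes Dlk1 and Dlk2 rose, by log2 1.63 (SE 0.33) and 0.98 (SE 0.19), each from few counts: Dlk1 had 19, 32, 40 and 37 against 12, 12, 5 and 10, and Dlk2 33 to 40 against 16 to 18. Neither Dll4, the Delta ligand of newborn retinal neurons and vessels (log2 -0.19, limits -0.41 to 0.04), nor Jag2 (0.11, limits -0.11 to 0.33) was called.

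In the nucleus, Rbpj, through which all canonical Notch output passes, was at 73.9, 68.4, 71.2 and 79.4 CPM in Ezh2fl/null replicates 1 to 4 and at 83.8, 81.5, 92.3 and 80.4 CPM in Ezh2fl/+ replicates 1 to 4. It fell by 0.21 on the log2 scale (SE 0.06, edgeR adjusted p = 0.0386), the 1 gene called of the 9 in the activating complex. That call held in 7 of 20 alternatives and ended, for instance, with the male libraries alone (log2 -0.14, edgeR adjusted p = 0.330; 20 alternatives spanned 0.0143 to 0.330). Of the 9 genes that attenuate the signal, the 1 called was Dtx4, a Deltex ubiquitin ligase gene, which fell by 0.26 on the log2 scale (328 ± 17.0 against 394 ± 7.49 CPM, SD, n = 4; edgeR adjusted p = 0.00187) and was called in all 20 alternatives. Nrarp, a direct target and feedback inhibitor of Notch, was not called at log2 -0.11 (limits -0.20 to -0.03, edgeR adjusted p = 0.0833), although its 108 to 115 CPM in the Ezh2fl/null libraries lay below the 120 to 121 CPM of the Ezh2fl/+ libraries.

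Of the enzymes that cut the receptor, 2 of 9 tested rose, the γ-secretase genes Psen2 (log2 0.28, SE 0.08) and Aph1c (1.03, SE 0.28), whereas Adam10 and Ncstn were not called. Aph1c has a near-identical neighbour, Aph1b, with which reads may be shared, and Aph1b was not called (log2 0.22, edgeR adjusted p = 0.0542). Of 14 corepressor genes 1 rose, the Groucho gene Tle4, at log2 0.16 (SE 0.05). The calls of Psen2, Aph1c and Tle4 held in 9, 12 and 8 of 20 alternatives. Bhlhe40, a more distant relative of the Hes genes, rose by log2 0.81 (SE 0.17), from 4.18 ± 1.12 to 7.26 ± 0.932 CPM (SD, n = 4). With the male libraries alone the calls of Dlk1 (log2 1.33, edgeR adjusted p = 0.0628) and Bhlhe40 (0.69, 0.0548) ended. With Ezh2fl/+ replicates 1 and 3 alone as controls those of Dlk2 (log2 0.79, edgeR adjusted p = 0.0941) and Bhlhe40 (0.49, 0.0846) ended. These p-values, apart from the 0.0548 of Bhlhe40, are the highest of each gene over 20 alternatives, and the lowest were 0.000447, 0.00177 and 0.000321 for Dlk1, Dlk2 and Bhlhe40. None of 4 genes for ligand endocytosis and none of 5 for receptor glycosylation was called (edgeR; at an unadjusted p under 0.05 2 of the former were higher and 1 of the latter lower, and DESeq2 called 1 of the latter, lower).

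**Figure D4:**
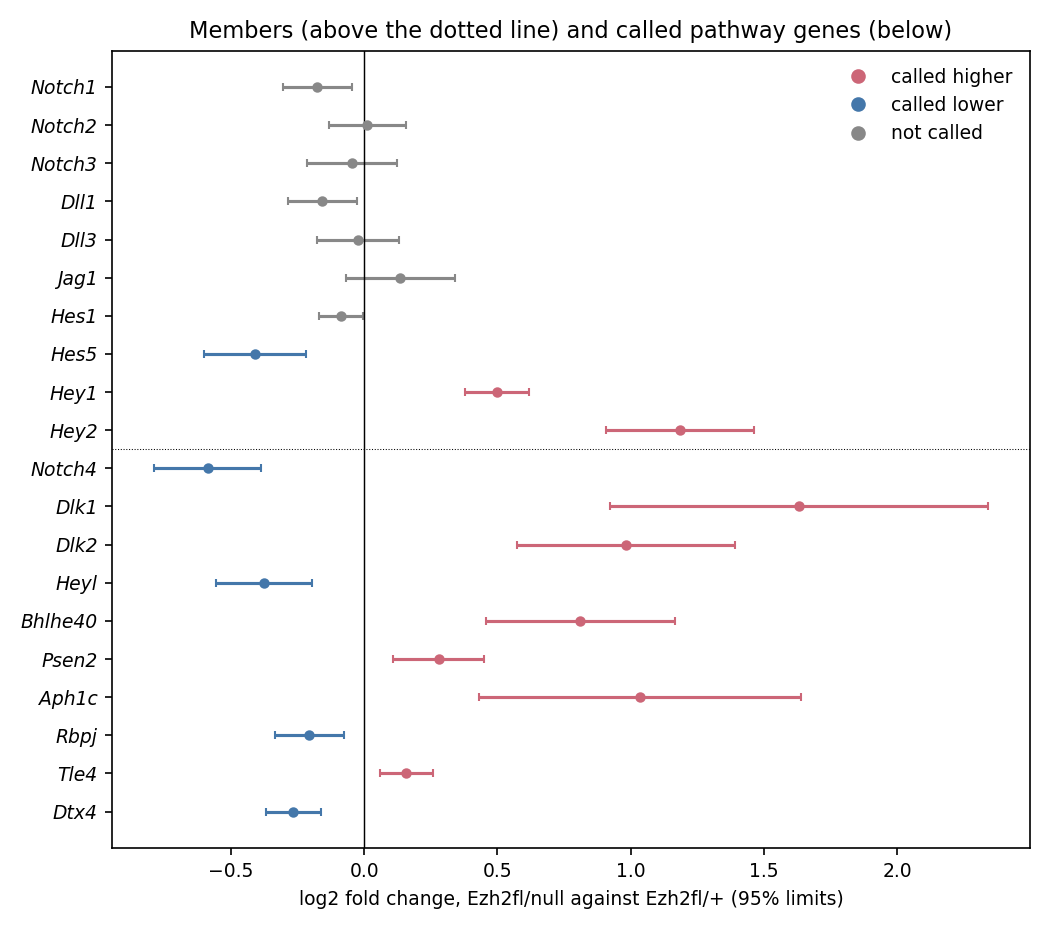
Log2 fold change of Ezh2fl/null against Ezh2fl/+ libraries (horizontal axis) with 95% limits from edgeR for the 10 genes (above the dotted line) and the 10 other pathway genes called (below), red where called higher, blue where called lower and grey where not called. Hey1 and Hey2 lie to the right of 0 at 0.50 and 1.19, and Hes5, Notch4 and Heyl lie to the left at -0.41, -0.59 and -0.38.

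Markers of cell types that also make Notch pathway genes were read beside these results, and their part in the results was not tested. Their summed levels were scaled by library size alone, unlike the CPM of single genes. Over all genes tested, 8.35% were called higher and 3.46% lower. Of 8 ciliary margin markers 7 were tested and 5 rose (Wfdc1, Mecom, Zic1, Ccnd2 and Gja1), with a summed level of 373 to 407 against 282 to 299.6 CPM. Cdon, which was not called, and Zic1 (mean 134 against 76.1 CPM) were the largest parts of that sum. Of 9 Müller glia markers tested 5 rose (Rlbp1, Clu, Aqp4, Car2 and Crym) and 1 fell (Glul), with a median log2 fold change of 0.43. Their summed level overlapped, at 2733 to 2910 against 2685 to 3030 CPM. Dkk3 (mean 1362 against 1473 CPM) and Glul (mean 587 against 665 CPM) were the largest parts of that sum, which says little about the scarcer markers. Periocular mesenchyme markers, of which 5 of 9 tested rose, summed to 31.1 to 82.7 against 22.8 to 52.7 CPM. Of 8 microglia markers 3 rose, and the sum was 40.7 to 46.6 against 30.0 to 37.3 CPM.

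Notch4 and Heyl are known from blood vessels, so endothelial and mural cell markers were also read. Whether vessel cells bear on the change of either gene was not tested. Of 10 endothelial markers listed, 6 were analysed here and 5 tested, of which Cldn5 and Egfl7 rose and Kdr fell. The log2 fold changes of the 5 went both ways, from -0.69 to 0.57, with a median of 0.14. Summed, the endothelial markers gave 269 to 320 against 335 to 363 CPM. Kdr, which retinal progenitors also express, made up most of that sum, at 258 to 299 against 313 to 341 CPM. Flt1, the other main VEGF receptor gene of endothelium, was at 1.53 ± 0.461 against 2.50 ± 0.518 CPM (SD, n = 4), a log2 fold change of -0.69 (limits -1.18 to -0.20) that was not called (edgeR adjusted p = 0.0669). The endothelial markers Pecam1 and Cdh5 stayed at or below 0.766 and 0.989 CPM in all 8 libraries. Mural cell markers, of which 1 of 5 tested rose (Cspg4), summed to 17.9 to 27.6 against 18.01 to 23.3 CPM.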

How the data were processed

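RNA-seq libraries of peripheral retina, 4 Ezh2fl/null and 4 Ezh2fl/+, were analysed from 1 deposited gene table. Per the submitters' processing notes, Novoalign 2.08.01, DESeq2 and the build mm10 were used. The sources used here name no counter, annotation release or strandedness. The deposited counts are raw reads per gene. The authors' FPKM divide by gene length and library total, and the lengths behind them had a median ratio of 1.00 to GENCODE M21 exon unions. The authors' log2 ratio column and the authors' adjusted p score, on an unnamed scale, were not used for results.

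Genes were tested with edgeR 4.0.16 (R 4.3.3): TMM normalization, filterByExpr (minimum count 10), glmQLFit, glmQLFTest and Benjamini-Hochberg adjustment over 15014 genes, called under 0.05. Standard errors follow from the F statistic. Positions and overlaps came from GENCODE M21 (mm10) by Ensembl identifier, and promoter sequences from RefSeq (GRCm38.p6). The fit was tested on simulated data. Named genes were the 10 members, Ezh2, Rbpj, each pathway gene called and the 2 closest profiles per called member; uncalled pathway genes, overlapping transcripts and markers were named after their values were seen. Tle5, a second name of the listed gene Aes in RefSeq, was counted once. The members and lists were chosen with earlier results of these data known. DESeq2 1.42.0 was an alternative, among 20, and called 1169 genes higher and 558 lower of the 16096 in the table.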

Additional observations from a re-analysis of the deposited data

Results flagged for a closer look

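The log2 ratio of Hey2 to Hes5 counts in Ezh2fl/null replicate 1 was -2.59, apart from the other 3 libraries of that group at -3.04 to -3.01. The gap made up 0.929 of the range of the group, above Dixon's 95% critical value for 4 samples. This was 1 of 28 groups of values examined, and chance alone marks about 1 in 20. Without that library the log2 difference between the groups was 1.47 for Hey2 to Hes5.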

How the results depend on the processing

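Hey1 and Hey2 were called higher, 2 of the 10 genes, in all 20 alternatives. The count of lower genes was 1 in the edgeR fit and 2 with DESeq2 (Hes5 and Notch1), 1 to 2 over the fits that leave out 1 library (2 without Ezh2fl/null replicate 4) and 2 with the replicate block, where Dll1 was added. With Ezh2fl/+ replicates 2 and 4 alone as controls, chosen after seeing the data, it was 0 (edgeR; 1 at an unadjusted p under 0.05). Of the other pathway genes 6 were higher. That count was 3 to 8 without 1 library (3 without Ezh2fl/null replicate 2 or Ezh2fl/+ replicate 2), 1 with the male libraries alone, 3 with sex as a covariate, 1 with Ezh2fl/+ replicates 1 and 3 as controls and 3 with replicates 2 and 4. The count of lower pathway genes, 4, was 3 to 7 without 1 library (7 without Ezh2fl/null replicate 4) and 2 with Ezh2fl/+ replicates 2 and 4 as controls. The cause of these moves was not tested, and the reduced fits hold fewer libraries. The labels share replicate numbers but do not say whether these pair the libraries. Deviations from group means across genes gave r of -0.07 to 0.23 between same-numbered libraries. Between libraries of different number r was -0.22 to 0.16, so these values do not settle the pairing. The differences of the 4 Hey to Hes ratios kept their direction in 15 alternatives each, between 0.54 and 0.62, 0.80 and 1.01, 1.15 and 1.34, and 1.47 and 1.69 log2, the replicate block included. With 2 against 4, 3 against 3 or 4 pairs of libraries no exact test can pass 0.05, and those are values without a test.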
